A study of Mus musculus with 2 samples.

Results

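The proteasome subunit genes are 31 genes of the mouse genome that encode the constitutive core particle and most of the regulatory particle of the proteasome, out of 22208 protein-coding genes of the GENCODE vM1 annotation on the autosomes and X. They were taken by name and sorted by the place of their product in the complex, which gave 7 core alpha genes (Psma1 to Psma7), 7 core beta genes (Psmb1 to Psmb7), 6 ATPase genes (Psmc1 to Psmc6) and 11 non-ATPase genes (Psmd1 to Psmd4, Psmd6 to Psmd8 and Psmd11 to Psmd14). ChIP-seq for CTCF was run on the mouse embryonic stem cell line E14TG2a.4, which is male and of strain 129/Ola, and for which the labels give an embryonic stage of 3.5 days. The 2 libraries, biological replicates 1 and 2, form the only group: both used an antibody to CTCF, neither carries a named treatment or allele, and both come from 1 donor through separate biosample records. The files are peak lists for each replicate and for both pooled, without read counts, so the depth behind each value is unknown. Peak lists measure no expression, so the cell type could not be checked against markers.

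The proteasome degrades proteins that carry ubiquitin chains. Its barrel-shaped 20S core has outer rings of alpha subunits, which gate the entry, and inner rings of beta subunits, which hold the proteolytic sites. A 19S cap binds the ends of the barrel, where a ring of ATPases unfolds substrates and non-ATPase subunits recognise ubiquitin, remove it and form the lid. CTCF is a zinc-finger protein that binds a long, GC-rich motif, whose sites can lie on either strand. It is known for insulating genes from each other and for anchoring chromatin loops.

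The motif that described CTCF binding was learned from strong peaks more than 10 kb from every proteasome gene start. It is 19 bases long, and its most frequent base at each position spells TGGCCACCAGAGGGCGCTA. The next sequences are the best motif sites anywhere in the peaks nearest to proteasome gene starts, in mm9, which are the promoter peaks discussed here. The capitals mark the motif and the lower case letters the 5 bases on each side, and each is written 5′ to 3′ on the strand that reads as the motif.

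Psmd1 (chr1:87961224-87961252, plus strand): gccggCGGCCTGTGGAGGGGACTGactga
Psmd8 (chr7:29966022-29966050, plus strand): cagacACCCCAGAAGAGGGTATTTgatcc
Psmd6 (chr14:14953524-14953552, minus strand): gccgaTGTCCAGCAGGGGACGCTGcgggc
Psmc4 (chr7:28835333-28835361, plus strand): aggttTCTCCAGTAGATGGCGCGGccgag
Psmc6 (chr14:45948856-45948884, minus strand): cacagAAGCCAGTAGAGGGCATCGgattt
Psma1 (chr7:121420191-121420219, plus strand): agattAGGCCACTAGGGGGAAGGTgcgag
Psmb5 (chr14:55236172-55236200, minus strand): cgcagGCGCCAAAAGAGGGCGTCGtgttc

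Of these 7 sites only that of Psmc6, at 19.7 bits, reached the motif threshold of 19.2 bits, the score that 1% of flanking windows reach. This threshold is strict, since the best site of all pooled peaks had a median score of 17.7 bits. A peak without a called motif can therefore still hold a weaker motif site. The sites of Psmd6, Psmc4, Psma1 and Psmb5 scored 18.0, 16.4, 14.98 and 14.76 bits. Those of Psmd8 and Psmd1 scored 10.3 and 10.1 bits. The Psmc6 site is centred 634 bp upstream of the mm9 start, and no site within 100 bp of that peak's midpoint scored above -0.74 bits. For Psmd1, Psmd8 and Psmd6 the best scores within 100 bp of the midpoint were 4.86, 2.31 and -5.17 bits. Their printed sites thus also lie away from the midpoint, centred 276 bp downstream, 344 bp upstream and 40 bp upstream of the start. The printed sites are not shown to be the bound ones.

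The second set shows sites farther from the starts, from peaks with a called motif, because most motifs near these genes lay there. The first 4 match the most frequent letters at 16, 16, 15 and 14 of the 19 positions, and the last 4 carry the word CAGAAGAGG described further on.

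Psma7 (chr2:179785836-179785864, minus strand): ctgagTGTCCACCAGGGGGCGCTGccaca
Psmd3 (chr11:98561372-98561400, plus strand): atctgTGGCCACCAGAGGGCACCCtagcc
Psmd1 (chr1:87956196-87956224, plus strand): ccttgAAACCACCAGAGGGCGCTGtaaaa
Psma1 (chr7:121425354-121425382, minus strand): tgtggAGGCCAGTAGAGGGCACTGgattc
Psmb5 (chr14:55228971-55228999, plus strand): cctgcAGGCCAGAAGAGGGCACCAgacct
Psmd12 (chr11:107334934-107334962, minus strand): tctgcAGGCCAGAAGAGGGCACCAgatct
Psmd4 (chr3:94834075-94834103, minus strand): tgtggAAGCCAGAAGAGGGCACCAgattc
Psmd11 (chr11:80277396-80277424, plus strand): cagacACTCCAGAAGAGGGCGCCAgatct

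The Psmb5 and Psmd12 sites hold the same 19 motif letters and had the highest score among the 40 member peaks, 23.956 bits each. Psmd3 followed with 23.8 bits, Psma1 with 23.3 bits and Psma7 with 22.8 bits.

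A CTCF peak of the pooled mm9 list had its midpoint within 10 kb of an annotated transcription start in 23 of 31 proteasome genes (74.2%, exact Clopper-Pearson 95% interval 55.4 to 88.1%), beside 50.1% of all protein-coding genes. Within 1 kb of a start, the distance used here for a promoter, 7 of 31 had a peak (22.6%, interval 9.59 to 41.1%), beside 12.7% of all genes. The genes with a promoter peak were Psma1, Psmb5, Psmc4, Psmc6, Psmd1, Psmd6 and Psmd8. These intervals cover counting error only and treat genes as independent draws, and no test was run, since the genes were chosen by name and are not replicates.

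**Figure D1:**
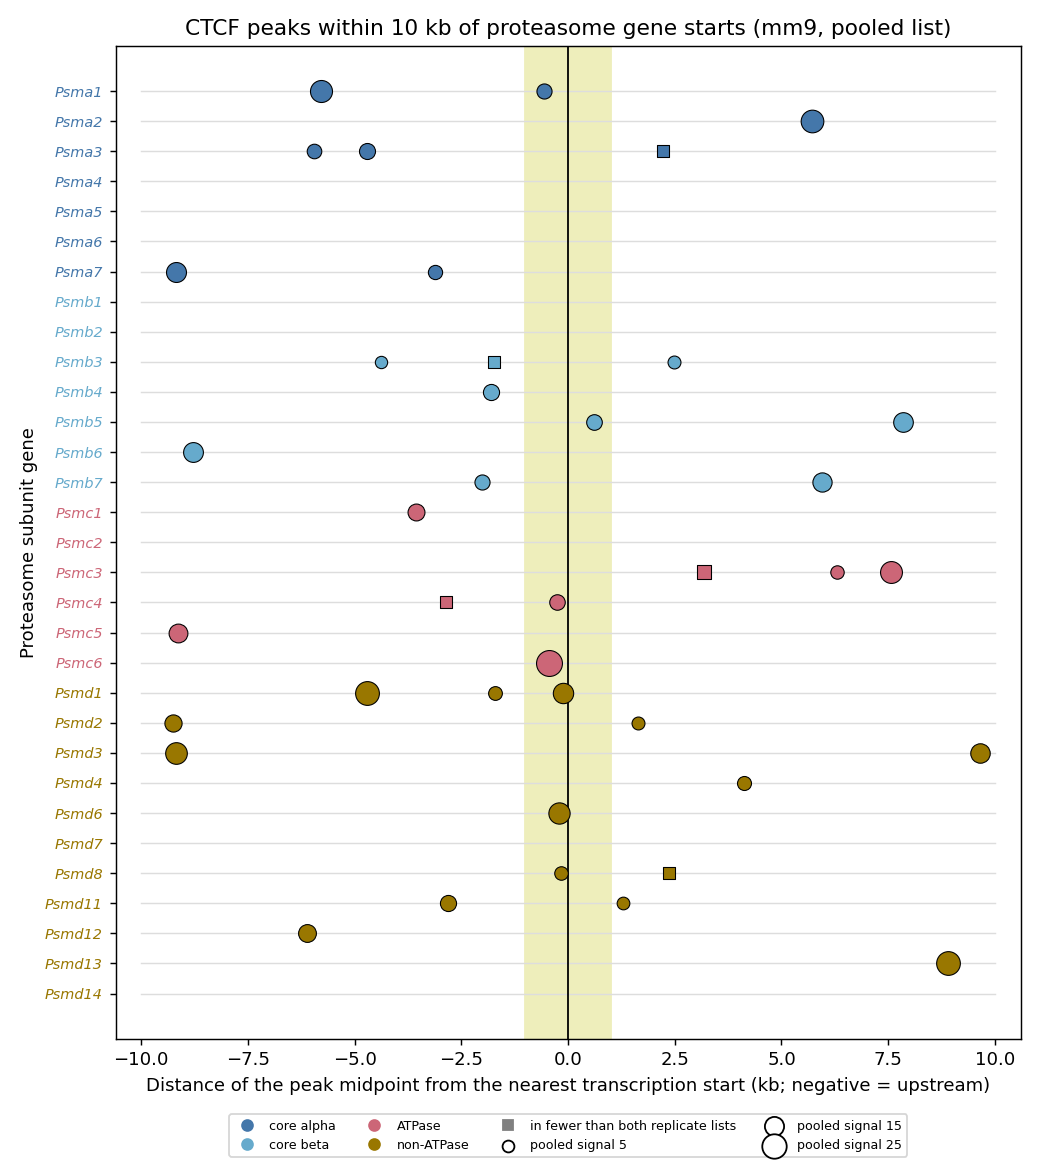
CTCF peaks within 10 kb of proteasome gene starts, with 1 row per gene and the signed distance of the peak midpoint from the nearest start in kb on the horizontal axis. Symbol area follows the pooled signal, circles are peaks in both replicate lists and squares peaks in fewer, the shaded band is 1 kb either side of the start, and 8 of the 31 rows are empty.

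Proteasome genes differ from the average gene in traits whose part in these shares was not tested. Of the 31 genes, 29 had a CpG ratio (observed over expected CpG within 500 bp of the first start) of 0.6 or more, and among the 10159 protein-coding genes with such a ratio 59.7% had a peak within 10 kb and 16.1% within 1 kb. The interval for proteasome genes at 10 kb lies above the share of all genes and includes that of CpG-rich genes. The proteasome genes also had a median of 4 annotated starts, against 2 for all genes, and a peak near any of them was counted. With only the first start of each gene, 21 of 31 had a peak within 10 kb (67.7%, interval 48.6 to 83.3%) beside 42.7% of all genes. Within 1 kb of the first start 7 of 31 had one (22.6%, interval 9.59 to 41.1%), beside 8.48% of all genes. The genes lost at 10 kb were Psmd4 and Psmd13. The median distance to the nearest pooled peak was 3569 bp for proteasome genes and 9962 bp for all protein-coding genes.

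**Figure D2:**
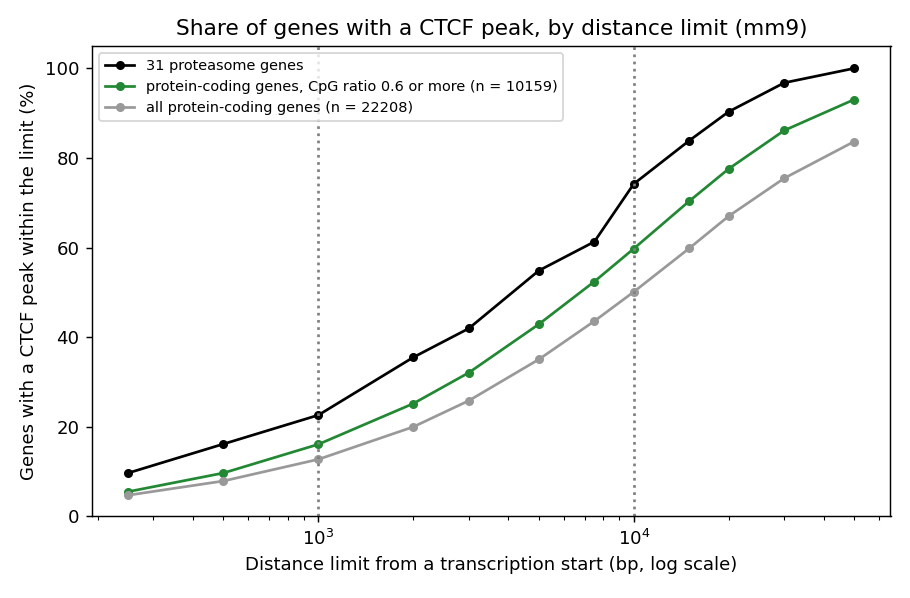
Percentage of genes with a CTCF peak within a distance limit, which runs from 250 to 50000 bp on a log axis, for the 31 proteasome genes, CpG-rich genes and all protein-coding genes. The proteasome line lies above both others at each of the 12 limits drawn, with 54.8% at 5000 bp beside 42.9% of CpG-rich genes and 35.0% of all genes.

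More than 1 peak within 10 kb was found at 13 of 31 proteasome genes (41.9%, interval 24.5 to 60.9%), beside 21.9% of all genes. The 23 genes had 40 distinct peaks in all, of which 25 lay upstream of the nearest start and 15 downstream. Psma3, Psmb3, Psmc3 and Psmd1 had 3 peaks each. The peaks lay outside protein-coding genes in 23 cases, in introns in 16 and in a coding exon in 1. For 27 of the 40 peaks the proteasome gene itself was the nearest protein-coding gene, so the other 13 were nearer to a start of another gene. Shares over all genes were not computed for side, annotation or nearest gene. These counts therefore describe the 40 peaks and are not a trait of proteasome genes.

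By subunit class, a peak within 10 kb was found at 4 of 7 core alpha genes (57.1%, interval 18.4 to 90.1%), 5 of 7 core beta genes (71.4%, 29.0 to 96.3%), 5 of 6 ATPase genes (83.3%, 35.9 to 99.6%) and 9 of 11 non-ATPase genes (81.8%, 48.2 to 97.7%). Within 1 kb the counts were 1 core alpha, 1 core beta, 2 ATPase and 3 non-ATPase genes. The class intervals overlap widely, so the order of the shares does not separate the classes. Taken by particle, 9 of 14 genes of the 20S core and 14 of 17 genes of the 19S cap had a peak within 10 kb, and again the intervals overlap, at 35.1 to 87.2% and 56.6 to 96.2%. The median distance to the nearest peak was 5714 bp for core alpha, 2009 bp for core beta, 3379 bp for ATPase and 4120 bp for non-ATPase genes.

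Each peak carries a signal from the authors, whose scale is not stated, and is described here by its value in the pooled list, in each replicate, and as a percentile among the 39349 pooled peaks. A pooled value is the authors' own call on both libraries and not the mean of the replicate values. The 40 member peaks had a median pooled signal of 10.2 (quartiles 7.1 and 16.11), beside 12.38 for peaks within 10 kb of any protein-coding start and 11.96 for all pooled peaks. At or above the median of the list were 16 of the 40 peaks (interval 24.9 to 56.7%). Restricted to such peaks, 14 of 31 proteasome genes had one within 10 kb (45.2%, interval 27.3 to 64.0%) beside 32.4% of all genes, and 3 of 31 within 1 kb beside 6.44%. Those 3 were Psmc6, Psmd1 and Psmd6, all genes of the 19S cap.

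**Figure D3:**
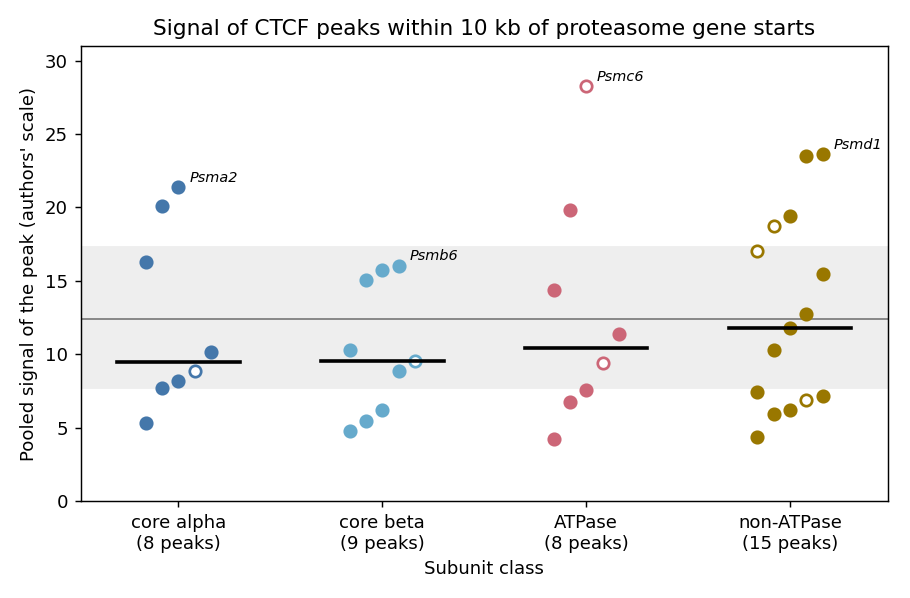
Pooled signal of the 40 member peaks on the authors' scale, by subunit class, with open symbols for peaks within 1 kb of a start and a black bar for the class median. The grey band and line are the quartiles and the median, 12.38, of peaks within 10 kb of any protein-coding start, and every class median lies inside the band and below its line.

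Among the core alpha genes, whose products form the gated outer rings, Psma1 had the only promoter peak, 566 bp upstream of its start. Its signal was 8.18 in replicate 1 and 10.28 in replicate 2 (9.23 ± 1.48, SD, n = 2), and the pooled value of 8.86 lay at percentile 31.4. A stronger peak stood 5787 bp upstream, with 24.82 and 20.28 in the replicates and a pooled value of 20.12, at percentile 88.1. In both replicates the distal peak was the higher of the 2.

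Psma2 had 1 peak, in its own intron 5714 bp downstream of the start, with 24.03 and 26.85 in replicates 1 and 2 (25.4 ± 1.99, SD, n = 2) and a pooled value of 21.38. This was the strongest core alpha peak, at percentile 91.6, although its best motif site scored only 7.81 bits. Psma3 had peaks 4707 and 5940 bp upstream with pooled values of 10.13 and 8.16, both in both replicate lists, and an intronic peak 2225 bp downstream, with 6.07 in replicate 1, that was not in the list of replicate 2. The peaks of Psma7, 3105 and 9196 bp upstream, lay in introns of Ss18l1, whose start is 76 bp away on the other strand. Their pooled values were 7.74 and 16.32.

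Psma4, Psma5 and Psma6 had no pooled peak within 10 kb. Their nearest were 18861 bp upstream, 13697 bp downstream and 25660 bp downstream. For Psma6 the list of replicate 2 alone held a weak peak 4729 bp downstream, with a signal of 4.57. Around its first start Psma6 had the lowest CpG ratio of the core alpha genes, 0.222. The ratio was not taken around its other annotated starts, and RefSeq lists a further promoter for this gene.

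Among the core beta genes the 3 with proteolytic sites are Psmb5 (chymotrypsin-like), Psmb6 (caspase-like) and Psmb7 (trypsin-like), and each had a peak within 10 kb. The Psmb5 peak lay in the gene's own intron, 601 bp downstream of the start, with 9.77 and 12.0 in replicates 1 and 2 (10.9 ± 1.58, SD, n = 2) and a pooled value of 9.57. The second Psmb5 peak, 7847 bp downstream and past the gene's end, had 16.1 and 18.28. It was the higher in both replicates, as at Psma1. Psmb6 had a peak 8786 bp upstream, nearer to Vmo1, with 17.43 and 17.71. Psmb7 had one 2009 bp upstream, with 8.71 and 9.71, and one 5961 bp downstream in its own intron, with 18.22 and 14.57.

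Of the beta genes without proteolytic sites, Psmb4 had a peak 1795 bp upstream, with 8.71 in replicate 1 and 13.42 in replicate 2, a difference of -0.62 on the log2 scale. Psmb3 had 3 weak peaks, with pooled values of 4.78, 5.49 and 6.19, all at or below percentile 13.4. The weakest, 1723 bp upstream of a start inside the gene, was in the list of replicate 2 alone. Psmb1 and Psmb2 had no peak within 10 kb, with the nearest 25393 bp downstream and 10370 bp upstream.

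Psmc6, an ATPase of the ring that unfolds substrates, had the strongest peak of all proteasome genes. Its midpoint lay 436 bp upstream of the start (chr14:45948404-45949732), and its signal was 35.91 in replicate 1 and 31.71 in replicate 2 (33.8 ± 2.97, SD, n = 2). The pooled value of 28.27 ranked 331 among 39349 peaks, at percentile 99.1. Psmc4 had a promoter peak too, 258 bp upstream, with 12.14 and 8.57 in the replicates and a pooled value of 9.42. In both replicates the Psmc6 peak was higher than that of Psmc4, and their replicate values did not overlap. A further Psmc4 peak 2870 bp upstream, with a pooled value of 4.22 at percentile 1.12, was the only member peak in neither replicate list.

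The peaks of the other ATPase genes were farther away. Psmc1 had a peak 3569 bp upstream with 12.41 and 16.28. Psmc3 had peaks 3189, 6298 and 7573 bp downstream of an internal start with pooled values of 7.6, 6.75 and 19.83. From the first start of Psmc3 these peaks lie 7289, 10398 and 11673 bp downstream. All were nearer to a start of the neighbouring Slc39a13, at 3088, 21 and 236 bp. The strongest lay in a coding exon of Slc39a13, and the peak at 3189 bp was in the list of replicate 2 alone. Psmc5 had a peak 9144 bp upstream, in an intron of Ddx42, with 16.37 and 15.71. Psmc2 had none within 10 kb, and its nearest was 19991 bp downstream.

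Of the non-ATPase genes, Psmd1, a large scaffold of the base, had 3 peaks, all upstream and all in both replicate lists. The promoter peak 119 bp upstream had 17.69 and 20.57 in replicates 1 and 2 (19.1 ± 2.04, SD, n = 2). The peak 4712 bp upstream had 26.93 and 28.28 (27.6 ± 0.955, SD, n = 2) and a pooled value of 23.63, at percentile 95.7. Between them, 1722 bp upstream, stood a weak peak with 8.98 and 6.86. The order of the 3 peaks was the same in both replicates.

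The lid genes Psmd6 and Psmd8 had promoter peaks of different height. Psmd6 had a peak 213 bp upstream with 22.44 and 19.99 (21.2 ± 1.73, SD, n = 2), at percentile 83.2 of the pooled list. Psmd8 had a peak 165 bp upstream with 6.07 and 9.43 (7.75 ± 2.38, SD, n = 2), at percentile 18.5. The replicate values of these 2 genes did not overlap. A second Psmd8 peak, 2357 bp downstream in the gene's intron, had 3.96 in replicate 1 and was not in the list of replicate 2.

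Psmd2, the other scaffold of the base, had peaks 1650 bp downstream and 9247 bp upstream with pooled values of 6.19 and 11.82. Psmd4, a ubiquitin receptor, had 1 peak 4120 bp downstream of an internal start, with 7.92 and 7.71. That peak lies past the gene's end, 12818 bp downstream of the first start. Psmd11, whose level is reported to set proteasome assembly in human embryonic stem cells, had peaks 1288 bp downstream and 2822 bp upstream of the nearest starts with pooled values of 5.91 and 10.27. Nearest starts can lie inside a gene: the first of these Psmd11 peaks is 35288 bp from the gene's first start.

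Further lid genes were Psmd3, Psmd12 and Psmd13. Psmd3 had a peak 9188 bp upstream, in an intron of Gsdma, with 20.59 and 22.28. Its other peak, 9660 bp downstream of an internal start, had 15.58 and 18.28. That peak lies past the gene's end, 17567 bp downstream of the first start and nearer to Csf3, at 1142 bp. Psmd12 had a peak 6114 bp upstream with 13.28 and 16.55. Psmd13 had a peak 8900 bp downstream of an internal start, nearer to Cox8b, with 28.51 and 27.99 and a pooled value of 23.49, at percentile 95.5.

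Psmd14, the enzyme that removes ubiquitin chains from substrates, and Psmd7, its partner in the lid, both lacked a peak within 10 kb. The nearest were 38444 and 11500 bp downstream. Psmd14 was thus the proteasome gene farthest from a pooled peak. By nearest peak, Psmc5 at 9144 bp and Psmd3 at 9188 bp were the members just inside the 10 kb limit, and Psmb2 at 10370 bp and Psmd7 at 11500 bp were just outside it.

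All 23 proteasome genes with a pooled peak within 10 kb had one that overlapped a peak of both replicate lists. This is 23 of 31 genes (74.2%), beside 45.8% of all protein-coding genes. Over all protein-coding genes, 11125 had a pooled peak within 10 kb and 10174 had one in both lists. Of the 40 member peaks, 35 were in both lists (87.5%, interval 73.2 to 95.8%), beside 85.9% of all pooled peaks, so the member peaks recurred about as often as peaks in general. Of the other 5, 4 were in exactly 1 list, and their pooled values ran from 4.36 to 7.6. The log2 ratio of replicate 1 over replicate 2 ranged from -0.64 at the Psmd8 promoter to 0.58 at the downstream Psmb3 peak. Its median size was 0.23, beside 0.19 for all pooled peaks in both lists. With 2 libraries and no second group, these ratios describe the spread between replicates and nothing was tested.

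**Figure D4:**
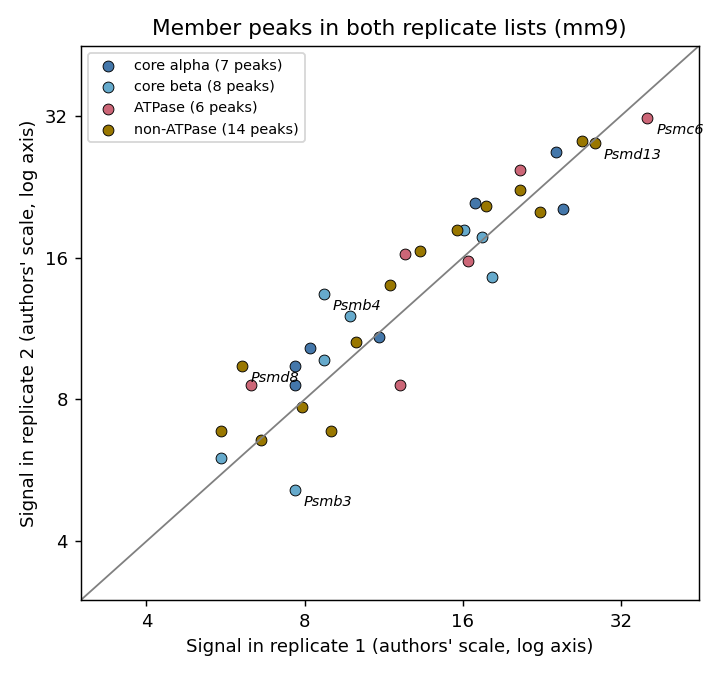
Signal of the 35 member peaks in both replicate lists, replicate 1 on the horizontal and replicate 2 on the vertical axis, both log axes on the authors' scale, coloured by subunit class, with the line of equal values. Psmc6 is highest in both, with 35.91 and 31.71, and the points of Psmd8, Psmb4 and Psmb3 lie farthest from the line among the labelled genes.

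A CTCF motif at or above the threshold was found in 15 of the 40 member peaks (37.5%, interval 22.7 to 54.2%), beside 33.8% of pooled peaks within 10 kb of any protein-coding start. The share is near that background, and a peak without a call can still hold a weaker motif site. Within 1 kb it was 1 of 7 peaks, beside 21.3% of peaks that near to any start, and beyond 1 kb 14 of 33 (42.4%, interval 25.5 to 60.8%), beside 36.9% of peaks at that distance from any start. By class the motif was called in 2 of 8 core alpha, 2 of 9 core beta, 3 of 8 ATPase and 8 of 15 non-ATPase peaks, with overlapping intervals. Called motifs lay on the strand of the gene in 8 of 15 cases. Of 34 motif sites within 10 kb of proteasome gene starts, 18 lay inside a pooled peak (52.9%), beside 53.2% of 9853 such sites for all genes. Weak and strong peaks occurred on both sides of the threshold, as Psma2 (7.81 bits, pooled signal 21.38) and the downstream Psmd8 peak (20.9 bits, pooled signal 4.36) show.

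**Figure D5:**
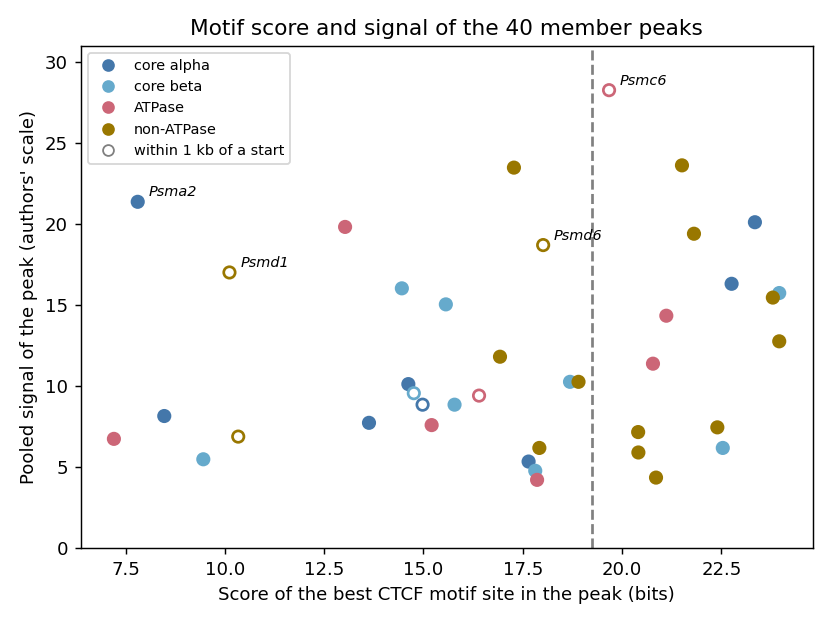
Score in bits of the best CTCF motif site of each of the 40 member peaks, against the pooled signal on the authors' scale, coloured by subunit class, with open symbols for peaks within 1 kb of a start and a dashed line at the 19.2 bit threshold. Among the 7 open symbols only Psmc6 lies to the right of the line, and Psma2 and the Psmd1 promoter peak combine low scores with signals of 21.38 and 17.02.

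Many of the best sites share the 9 letters CAGAAGAGG, a word picked out after the sites had been seen. It occurred in the best site, with its 5 flanking bases, of 15 of the 40 member peaks (37.5%) and of 22.8% of the 14923 peaks within 10 kb of any protein-coding start. Among peaks with a called motif it occurred in 6 of 15 member peaks and in 46.6% of the peaks near any start. Member peaks with the word had a median pooled signal of 7.17 and those without it 11.82, and for peaks near any start the medians were 10.13 and 13.08. B2 elements, short interspersed repeats of the mouse, are known to carry CTCF motifs, but no repeat annotation was used here, so whether these sites lie in such repeats was not tested.

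Promoter sequences from RefSeq (GRCm38.p6, which is mm10) were matched by symbol for 25 of 31 proteasome genes. A CTCF motif of at least 15.7 bits, the score that 1% of flanking windows of the length of a peak's middle reach, lay in this window of 250 bases before to 50 after the start in 3 of the 25 (12.0%), beside 2.25% of the 27025 genes in the table. The exact interval for the proteasome genes is 2.55 to 31.2%. At the 19.2 bits used for whole peaks the count was 0 of 25, beside 0.607% of all genes in the table, and Psmc6 passed the lower threshold narrowly, with 15.75 bits against 15.72. The 3 were Psmc4, Psmc6 and Psmd6. Each had a summit of the conservative mm10 set within the 250 bases before its start, and Psmd8 was the only other gene of the 25 with a summit there. The sequences from 250 to 51 bases before these 3 starts follow, on the strand of the gene, with the motif in capitals.

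Psmc4 (mm10, chr7:28050143-28050342, minus strand): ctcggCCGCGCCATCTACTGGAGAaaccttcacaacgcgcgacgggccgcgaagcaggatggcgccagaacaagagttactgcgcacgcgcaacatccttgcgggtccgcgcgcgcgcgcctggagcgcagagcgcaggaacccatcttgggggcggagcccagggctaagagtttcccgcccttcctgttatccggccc
Psmc6 (mm10, chr14:45329574-45329773, plus strand): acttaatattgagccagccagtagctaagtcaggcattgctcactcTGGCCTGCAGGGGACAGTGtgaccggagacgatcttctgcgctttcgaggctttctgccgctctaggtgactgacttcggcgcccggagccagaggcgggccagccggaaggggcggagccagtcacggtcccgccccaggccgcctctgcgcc
Psmd6 (mm10, chr14:14120996-14121195, minus strand): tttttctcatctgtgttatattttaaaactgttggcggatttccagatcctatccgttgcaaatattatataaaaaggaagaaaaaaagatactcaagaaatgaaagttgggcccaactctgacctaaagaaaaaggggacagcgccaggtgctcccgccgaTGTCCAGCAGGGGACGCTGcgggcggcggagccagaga

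The motifs are centred 236, 195 and 79 bases before the start and scored 16.4, 15.75 and 18.0 bits. Those of Psmc6 and Psmd6 read in the direction of the gene, and that of Psmc4 against it. In Psmc4 and Psmd6 the motif holds the same letters as the site printed for mm9, and in Psmc6 it is another, nearer to the start. The antioxidant response element, which NFE2L1 is known to bind at proteasome promoters, was searched as TGACNNNGC on both strands of the same windows. It occurred in 4 of the 25 genes (16%), which were Psmb5, Psmb6, Psmc6 and Psmd12, beside 13.99% of all genes in the table. A match of letters is a description and not a shown site.

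The mm10 lists are a second set of calls on the same libraries, with summits, and were set against RefSeq gene starts without converting coordinates. A conservative summit lay within 10 kb of the start of 22 of 31 proteasome genes (71.0%, interval 52.0 to 85.8%), beside 45% of 18205 protein-coding genes. By class this was 4 of 7 core alpha, 5 of 7 core beta, 5 of 6 ATPase and 8 of 11 non-ATPase genes. Psmd13 was the gene with a pooled mm9 peak near an annotated start but no mm10 summit within 10 kb, and its nearest conservative summit was 21055 bp downstream of the RefSeq start. From the first GENCODE start, the mm9 peak of Psmd13 lay 21447 bp downstream, so its count depends on the start used. Psmd4 counted in both builds through different sites. Its mm9 peak was downstream of an internal start, and its only mm10 summit within 10 kb was 9899 bp upstream, at percentile 4.88. Within 1 kb 8 of 31 genes had a summit (25.8%, interval 11.9 to 44.6%), beside 9.77%. These were the 7 genes with a promoter peak in mm9 and Psma3, with summits 600 bp upstream and 665 bp downstream. The RefSeq record of Psma3 starts at position 70969283 of chromosome 12, while its RefSeq promoter entry is anchored at 70974623, so the nearness of those summits depends on the start used.

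Signals on mm10 were divided, within each replicate, by the median of the conservative peaks, so 1 is the level of the median peak in that replicate. The main Psmc6 summit, 221 bp upstream, was at 2.96 in replicate 1 and 2.70 in replicate 2 (2.83 ± 0.187, SD, n = 2). A weaker summit of the same gene, 676 bp upstream, was at 0.354 and 0.296. By distance from the start of its own build, the called Psmc6 motif at 634 bp is thus nearest to the weak summit, and the main summit is nearest to the 15.75-bit motif at 195 bp. The Psmd1 summit 4988 bp upstream was at 2.41 and 2.76, and the one 291 bp upstream at 1.58 and 2.01. Psmd6, 94 bp upstream, was at 2.04 and 1.67, and Psma2, 5716 bp downstream, at 2.14 and 2.51. The promoter summits of Psma1 (0.651 and 0.994), Psmb5 (0.742 and 0.979), Psmc4 (0.974 and 0.623) and Psmd8 (0.520 and 0.737) stayed below 1 in both replicates. Taking the strongest summit within 1 kb, the replicate values of Psmc6, Psmd1 and Psmd6 did not overlap those of these 4 genes, whereas the weaker Psmc6 summit was below all of them. Psmd3 stood out between the builds: its peak 9188 bp upstream was at percentile 85.7 of the pooled mm9 list, and its only conservative mm10 summit within 10 kb, 9249 bp upstream, was at percentile 11.5. The cause was not tested.

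Some proteasome genes share a short upstream region with a gene on the other strand. A start of another protein-coding gene on the opposite strand lay within 1 kb of the first start in 6 of 31. These were Psma2 with Mrpl32, Psma4 with AY074887, Psma7 with Ss18l1, Psmc2 with Dnajc2, Psmc5 with Ftsj3 and Psmd13 with Sirt3, at distances of 32 to 217 bp. Over all protein-coding genes 11.5% had such a neighbour, and 13.9% of those with one had a peak within 1 kb. None of the 6 proteasome genes did, a count too small to separate from that share, and Psma4 and Psmc2 had no pooled peak within 10 kb.

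A wider list of 24 genes around the proteasome (immunoproteasome and tissue-specific core subunits, activators, an inhibitor, assembly chaperones, further cap subunits and the NFE2L1 and NFE2L2 regulators) gave 17 genes with a pooled peak within 10 kb (70.8%, interval 48.9 to 87.4%), beside 50.1% of all protein-coding genes. Within 1 kb it gave 3 of 24 (12.5%, interval 2.66 to 32.4%), which is near the 12.7% of all genes. Psmg2, an assembly chaperone of the core, had a peak 901 bp downstream with 21.91 and 23.14 in replicates 1 and 2. Psmg3, its fellow chaperone, had one 995 bp upstream with 18.48 and 18.57. Adrm1, a ubiquitin receptor of the cap, had one 304 bp upstream with a pooled value of 3.94 that was in neither replicate list. Psme1 and Psme2, which encode the partners of an activator, were near the same peak, and the promoter peak of Psmb5 was also within 10 kb of Psmb11.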

How the data were processed

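The labels name the line, antibody and replicate, and samples were grouped by them into 1 group of 2. For mm9 the authors deposited broad peaks per replicate and on both pooled, with a signal of unstated scale (lowest value 2.81) and a −log10 p of at least 5. The deposited mm10 lists hold a signal per peak, and the conservative and optimal sets also hold a deposited score that was not used in a comparison. The sources used here do not state the aligner, the peak caller, their versions or the read depths, so precision is given by the 2 replicates and by exact Clopper-Pearson 95% intervals of counts, which cover counting error only. The members and lists were chosen with earlier results of these data known.

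Pooled mm9 peaks (39349 on the autosomes and X) were placed by midpoint against every transcription start of GENCODE vM1 on mm9, and a peak was in a replicate list where they overlapped by 1 bp. The replicate lists hold 36353 and 36733 peaks. Conservative mm10 summits (43344) were placed against RefSeq gene starts (GRCm38.p6), with the strand of each gene from GENCODE, which was that of the RefSeq promoter table for 99.7% of genes. The 19-base motif (17.0 bits) was learned by expectation maximisation on the 5000 strongest peaks over 10 kb from member starts, within 100 bp of the midpoint. Thresholds came from 39347 flanking windows 500 to 5000 bp away. Distance and motif steps were tested on simulated data. Alternatives covered distance, start, peak edge, signal, overlap, motif threshold, peak set and leaving out each replicate. Every member is named, with values where a peak lay within 10 kb, and of the wider list those with a peak within 1 kb. Python 3.11.15, numpy 2.4.6, pandas 2.3.3, scipy 1.17.1 and numba 0.67.0 were used.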

Additional observations from a re-analysis of the deposited data

How the results depend on the processing

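Of 44 alternative settings, 35 were planned and 9 were added after seeing the data, and 37 kept the count within 1.5 times its value or the median within the spread of the replicates. The number of proteasome genes with a peak within 10 kb was 23. It was 17 at 5 kb, 28 at 20 kb and 24 by the nearest peak edge, which added Psmb2, and it ran from 23 to 24 when 1 replicate was left out. Restricting the list to pooled peaks at or above its median signal gave 14 genes at 10 kb in place of 23 and 3 genes at 1 kb in place of 7. The 4 class counts changed by at most 3 genes, and by at most 1 when a replicate was left out. The median signal of member peaks was 10.2 in the pooled list, and 11.62 to 13.42 when 1 replicate was left out. The medians of all peaks also differ between the lists, at 11.96 pooled, 13.73 in replicate 1 and 14 in replicate 2. With only the strongest peak of each gene the pooled median of member peaks was 15.05. The count of 15 motif-bearing peaks became 7 at the threshold that 0.1% of flanking windows reach and 1 among peaks within 1 kb. Within 100 bp of the midpoint it was 11 at the unchanged threshold of 19.2 bits, and 19 at the 15.7 bits that 1% of flanking windows of that length reach, which changes window and threshold together. The conservative mm10 count of 22 ran from 21 to 22 without 1 replicate. The settings of higher signal, stricter threshold and 1 kb each count a subset of the main peaks or calls, so their counts could not rise. Within 1 kb the motif share was lower too, at 1 of 7 peaks beside 15 of 40. For peaks near any protein-coding start it was 21.3% within 1 kb and 33.8% within 10 kb. The cause was not tested. No paired analysis was possible because the design has 1 group. Unknown depth limits the absence of a peak to a peak not called.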
